A study of Mus musculus with 8 samples.

Results

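Hypoxia response genes are genes whose transcription is raised when cells lack oxygen. The 10 genes described here are *Adm*, *Vegfa*, *Slc2a1*, *Hk2*, *Pdk1*, *Bnip3*, *Egln3*, *Car9*, *Ankrd37* and *Ndrg1*. They were chosen by symbol, as the rows of the count table for the B genome (C57BL/6J) whose Ensembl identifier carries one of these names, and they are 10 of the 49585 genes in that table. RNA-seq had been performed on the whole brains of 8 newborn B × C females, the F1 of a C57BL/6J mother and a CAST/EiJ father, collected within a day of birth (labelled postnatal day 1). The mothers of 4 pups drank water with 0 ppm CdCl2 and those of the other 4 drank water with 50 ppm, from before mating until birth, and each pup came from a different litter. The pups themselves were not dosed, all 8 carried the same hybrid genotype, and the whole brain was homogenized, so that a value is an average over all its cell types and regions. In such bulk RNA, fewer cells of a type and less RNA per cell cannot be told apart. The comparison asks whether the mother's cadmium (Cd) exposure moved the oxygen-sensing program of the newborn brain.

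Cells sense oxygen through the hypoxia-inducible factors (HIF). When oxygen is plentiful, prolyl hydroxylases mark the HIF alpha subunit, the VHL complex binds the marked protein, and it is degraded. When oxygen is scarce, the alpha subunit is kept, pairs with ARNT and binds short DNA motifs near its target genes. These targets bring in more glucose, move metabolism from mitochondria to glycolysis, remove mitochondria, call for vessels and, through *Egln3*, restrain HIF itself. HIF is regulated mainly as a protein, so that the RNA of its targets is the usual readout of its activity.

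The core of the motif that HIF binds reads ACGTG or GCGTG, which on the other strand reads CACGT or CACGC. It was searched on both strands in the 250 bases before each RefSeq start site (GRCm38.p6), counting overlapping matches. An entry was found for 9 of the 10 genes (not for *Ndrg1*), and each of the 9 held the letters in at least 1 of its windows, against 53.8% of the 15056 tested genes with an entry. Over windows it was 9 of 11, against 38.6% of all 32851. *Vegfa* had no match before its start site at 46032377, and 2 before a start site inside the gene, at 46025163. The only match of *Car9*, at 18 bases, lies past the start of the annotated gene, and the 190 bases before that start held no match. The windows of the 9 genes were also richer in G and C, with a median of 59.6% against 52.4% over all windows, and the part of base composition in this difference was not tested. A match describes letters and is not evidence that the factor binds. The sequences of 4 genes are shown because they span the comparison below, with *Bnip3* as the gene with the smallest p-value, *Adm* as a scarce ligand, *Slc2a1* as an abundant transporter and *Egln3* as the oxygen sensor. They come from RefSeq, read 5′ to 3′ on the strand of the gene, stop before the first annotated exon, and carry the motif in capitals.
*Bnip3* (chr7:138909520-138909756, minus strand): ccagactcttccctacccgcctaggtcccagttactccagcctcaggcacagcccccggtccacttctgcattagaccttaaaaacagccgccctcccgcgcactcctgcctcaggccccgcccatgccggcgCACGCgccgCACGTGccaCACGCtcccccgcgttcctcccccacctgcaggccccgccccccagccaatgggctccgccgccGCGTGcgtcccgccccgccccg
*Adm* (chr7:110627407-110627656, plus strand): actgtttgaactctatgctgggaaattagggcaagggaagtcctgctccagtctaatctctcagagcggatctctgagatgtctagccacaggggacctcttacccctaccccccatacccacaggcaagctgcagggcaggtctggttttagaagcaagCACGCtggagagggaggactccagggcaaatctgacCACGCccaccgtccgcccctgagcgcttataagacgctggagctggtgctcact
*Slc2a1* (chr4:119108495-119108710, plus strand): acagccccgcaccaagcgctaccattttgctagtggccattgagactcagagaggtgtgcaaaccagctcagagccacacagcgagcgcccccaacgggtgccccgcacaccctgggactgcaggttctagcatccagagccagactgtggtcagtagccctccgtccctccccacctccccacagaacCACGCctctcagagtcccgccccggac
*Egln3* (chr12:54203875-54204124, minus strand): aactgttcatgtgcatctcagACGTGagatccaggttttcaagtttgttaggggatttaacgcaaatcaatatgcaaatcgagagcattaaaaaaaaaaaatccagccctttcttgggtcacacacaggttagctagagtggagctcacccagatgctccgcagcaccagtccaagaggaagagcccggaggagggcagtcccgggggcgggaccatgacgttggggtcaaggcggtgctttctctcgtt
*Bnip3* carried the most matches, 5, of which ACGTG and CACGT share letters in the run CACGTG. *Adm* carried 2, both CACGC, at 90 and 54 bases before the start site. *Slc2a1* showed 1 here, at 61 bases, and a second at 36 bases reaches into an annotated exon. *Egln3* carried 1, at 229 bases before the start site.

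The 8 brains had 22916434 to 30708087 reads on genes. Values are given as CPM (reads of a gene scaled by library size, after TMM normalization, which evens out library composition). A count of 3 reads, the upper limit that a count of 0 allows, corresponded to 0.0980 to 0.132 CPM, and such limits cover counting error only. Brains of the same dose differed by more than sampling noise in all 12 pairs (chi-square per degree of freedom 9.28 to 22.7), so none was counted as a repeat of another. Brain markers were present, although *Tubb3* and *Sox2*, which newborn brain uses, were listed at 0 in all 8 libraries, so a 0 in this table cannot be read as absence. No hypoxia response gene was at 0 in any library. The brainstem and spinal cord markers set 0 ppm replicates 1 and 2 apart. Their summed levels were 7.99 and 15.6 CPM there, against 53.5 to 118 CPM in the other 6 brains. *Hoxa3* of that list was at 0 in all libraries. Values without these 2 libraries are given for the 10 genes, the pathway lists and the pathway genes with an unadjusted p under 0.05. Of the marker lists, they are given for astrocytes, oligodendrocytes, choroid plexus, and brainstem and spinal cord.

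The hypoxia response genes were detected in every brain, and no difference between the doses passed the test in any of them. All 10 passed the filter on low counts (a count in enough libraries, which kept 23113 genes). With the quasi-likelihood test of edgeR, adjusted by Benjamini-Hochberg over every gene tested, 0 of the 10 had an adjusted p under 0.05 (0.999 for each), against 0.0173% of all genes. DESeq2 and limma-voom also called 0 of the 10. At an unadjusted p under 0.05 there was 1, *Bnip3*, which was higher at 50 ppm, against 3.75% of all genes in either direction and 2.31% in the higher direction (1.44% in the lower one, where the 10 genes gave 0). In 0 of the 10 genes did the exposed brains lie entirely above the controls or entirely below them, against 1.19% and 0.904% of all genes. The log2 fold change of 50 ppm over 0 ppm was positive for 8 genes and negative for 2, against 49.0% positive over all genes, and its median was 0.17 against -0.003. As a description of the choice of genes and these libraries, that lean carries no test, and the number of positive genes lay between 7 and 10 over the alternatives tried.

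**Figure D1:**
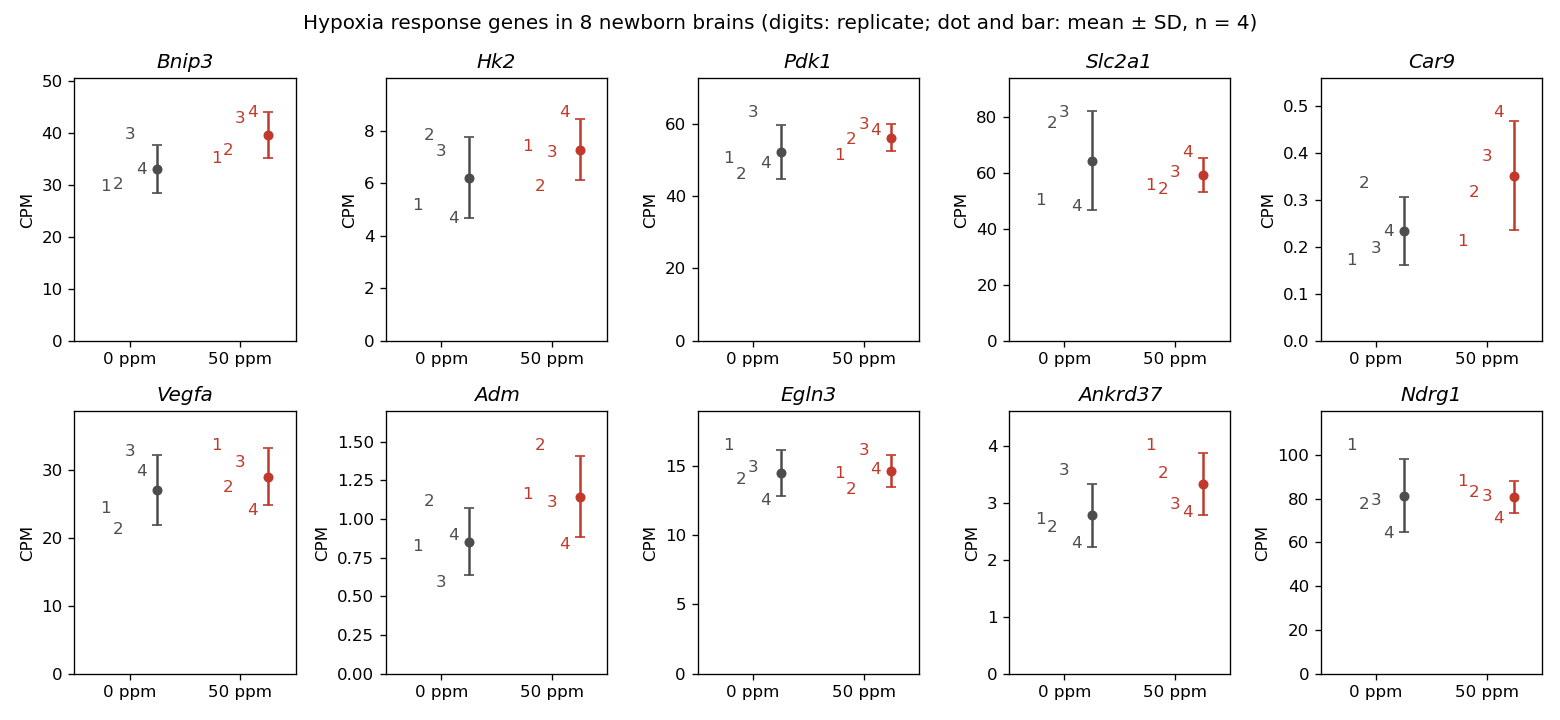
CPM (y axis, from 0) of each of the 10 genes in the 4 brains at 0 ppm (grey) and the 4 brains at 50 ppm (red), with digits for replicates and a dot with a bar for the mean ± SD. The ranges of the doses overlap in all 10 panels, and for *Bnip3*, *Pdk1* and *Ankrd37* the overlap is due to 0 ppm replicate 3 alone, the 3 other controls lying below all exposed brains.

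*Bnip3* (ENSMUSG00000078566, chromosome 7, 138890836 to 138909519 of GRCm38, minus strand) encodes a protein of the outer mitochondrial membrane that marks mitochondria for removal by autophagy. The control brains had 29.7, 30.0, 39.7 and 33.1 CPM and the exposed brains 35.1, 36.7, 42.7 and 44.0 CPM. All 4 exposed brains lay above the control mean, but 0 ppm replicate 3 lay above 2 of them. The means were 33.1 ± 4.66 CPM and 39.6 ± 4.39 CPM (SD, n = 4), and the fitted log2 fold change was 0.26 (standard error 0.10, unadjusted p = 0.0237 and adjusted p = 0.999 with edgeR). The 95% interval of the fold, 1.03 to 1.39, is for this gene alone and is not corrected for the number of genes tested. The unadjusted p was 0.0750 without 0 ppm replicate 1, 0.0718 without 0 ppm replicate 2, 0.0678 without 50 ppm replicate 3 and 0.0891 without 50 ppm replicate 4. Without 0 ppm replicate 3 the log2 fold change was 0.36 (edgeR, unadjusted p = 0.00201, adjusted p = 0.466), and without 0 ppm replicates 1 and 2 it was 0.12 (unadjusted p = 0.317). An opposite-strand gene covers 22.3% of its exons, and the strand setting of the count is not given in the sources used here. *Bnip3l*, its relative with the same task and the gene with the most reads in a list of 7 other mitochondrial and autophagy targets (log2 fold change 0.05), had means of 136 ± 6.89 and 141 ± 14.8 CPM (SD, n = 4). Of these 7 genes, 0 had an unadjusted p under 0.05, near the share of 3.75% over all genes. The log2 fold change was positive for 5 (49.0% over all genes) and negative for 2, and the median was 0.05.

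*Slc2a1* (ENSMUSG00000028645, chromosome 4, 119108711 to 119137983, plus strand, with 3.0% of its exons shared with the other strand) encodes GLUT1, the glucose transporter of the blood-brain barrier and of glia. It had 50.4, 77.9, 81.7 and 47.9 CPM in the control brains and 55.5, 54.1, 60.4 and 67.3 CPM in the exposed brains. The control brains fell into a high and a low pair that enclosed all exposed brains, with an SD of 17.8 CPM at 0 ppm and 5.95 CPM at 50 ppm around means of 64.5 and 59.3 CPM, and this difference in spread was not tested. It gave a log2 fold change of -0.12 (standard error 0.14, unadjusted p = 0.400 from edgeR), with a 95% interval of the fold from 0.749 to 1.13. The sign was not stable, since the log2 fold change was 0.01 without 0 ppm replicate 3 and 0.015 with limma-voom, while it was -0.24 without 0 ppm replicate 4 and -0.14 without 0 ppm replicates 1 and 2.

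*Hk2* (ENSMUSG00000000628, chromosome 6, 82725025 to 82774454, minus strand) encodes the inducible hexokinase, which traps glucose in the cell. It had 5.15, 7.81, 7.22 and 4.65 CPM in the control brains and 7.40, 5.86, 7.17 and 8.69 CPM in the exposed brains. The same pair of control brains as for *Slc2a1*, 0 ppm replicates 2 and 3, was high, and 50 ppm replicate 4 was the highest of all 8. The fitted difference was 0.23 on the log2 scale (standard error 0.17, unadjusted p = 0.212 from edgeR). It was 0.11 when 0 ppm replicate 4 was left out, 0.35 when 0 ppm replicate 2 was, and 0.13 without 50 ppm replicate 4, and it was 0.28 without 0 ppm replicates 1 and 2. *Pdk1* (ENSMUSG00000006494, chromosome 2, 71873224 to 71903858, plus strand) encodes a kinase that shuts pyruvate out of the mitochondrial cycle. It had 50.5, 46.1, 63.1 and 49.1 CPM in the control brains and 51.2, 55.7, 59.8 and 58.1 CPM in the exposed brains. All 4 exposed brains lay above 3 of the control brains, and 0 ppm replicate 3 lay above all of them. On the log2 scale the fold change was 0.11 (standard error 0.09, unadjusted p = 0.271 from edgeR), with a 95% interval of the fold from 0.939 to 1.23. Without 0 ppm replicate 3 it was 0.21 (unadjusted p = 0.0200, adjusted p = 0.847 from edgeR), without 0 ppm replicate 2 it was 0.051, and without 0 ppm replicates 1 and 2 it was -0.004.

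*Vegfa* (ENSMUSG00000023951, chromosome 17, 46016993 to 46032369, minus strand) encodes the growth factor that draws vessels into tissue short of oxygen. It had 24.3, 21.2, 32.6 and 29.8 CPM in the control brains and 33.5, 27.4, 31.1 and 24.0 CPM in the exposed brains. The groups covered nearly the same range, and the log2 fold change was 0.10 (standard error 0.13, unadjusted p = 0.425 from edgeR), with a 95% interval of the fold from 0.892 to 1.30. Without 0 ppm replicates 1 and 2, the lowest controls, it turned to -0.11. With 1 library left out it lay between 0.005 (0 ppm replicate 2) and 0.21 (0 ppm replicate 3), and it was 0.03 without 50 ppm replicate 1. *Adm* (ENSMUSG00000030790, chromosome 7, 110627661 to 110629820, plus strand) encodes adrenomedullin, a peptide that widens vessels. It was scarce, with 18 to 42 reads per brain, and had 0.819, 1.12, 0.588 and 0.891 CPM in the control brains and 1.16, 1.47, 1.11 and 0.838 CPM in the exposed brains. Its log2 fold change of 0.44 (standard error 0.27, unadjusted p = 0.128 from edgeR) had a 95% interval of the fold from 0.909 to 2.02. It lay between 0.29 (without 0 ppm replicate 3, and likewise without 50 ppm replicate 2) and 0.59 (without 0 ppm replicate 2) with 1 library left out, and was 0.65 without 0 ppm replicates 1 and 2. A difference as small as that of *Bnip3* would lie within that 95% interval and was not detectable for *Adm* at this depth.

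Adrenomedullin acts through the receptor *Calcrl* with a RAMP partner. All 4 genes of a list of *Calcrl* and RAMP genes, not each of them specific to adrenomedullin, had a positive log2 fold change (49.0% over all genes). The median of the 4 genes was 0.27. None passed over all genes tested, and *Calcrl* alone had an unadjusted p under 0.05 (2.31% of all genes in that direction). It had 9.29, 15.7, 13.5 and 10.8 CPM in the control brains and 14.4, 12.5, 18.1 and 18.9 CPM in the exposed brains, so the groups overlapped (log2 fold change 0.37, standard error 0.16, unadjusted p = 0.0327 from edgeR). Its log2 fold change was 0.38 without 0 ppm replicates 1 and 2, and it lay between 0.25 and 0.51 with 1 library left out, with an unadjusted p under 0.05 in 4 of these 8 fits. *Ramp2*, the partner with the most reads, had a log2 fold change of 0.03, with means of 18.9 ± 2.16 and 19.3 ± 0.422 CPM (SD, n = 4). Since 33.4% of its exon length overlaps *Vps25* on the same strand, its count is uncertain. *Calcrl* is made by endothelium, whose markers, with those of pericytes, summed to 312 to 377 CPM at 0 ppm and 350 to 424 CPM at 50 ppm. Of these 10 markers 9 had a positive log2 fold change (49.0% over all genes), *Rgs5* (0.28) and *Kcnj8* (0.45) of the pericytes had an unadjusted p under 0.05 (2.31% of all genes in that direction), and their part in the values of *Calcrl* was not tested.

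*Egln3* (ENSMUSG00000035105, chromosome 12, 54178981 to 54203860, minus strand) encodes PHD3, the prolyl hydroxylase that HIF itself induces. It had 16.5, 14.0, 14.9 and 12.5 CPM in the control brains and 14.4, 13.3, 16.1 and 14.7 CPM in the exposed brains, and all exposed brains lay inside the range of the control brains. The log2 fold change was 0.02 (standard error 0.11, unadjusted p = 0.892 from edgeR), with a 95% interval of the fold from 0.858 to 1.19. Its sign turned with single libraries, to -0.05 without 0 ppm replicate 4 and to -0.03 without 50 ppm replicate 3, and it was 0.09 without 0 ppm replicates 1 and 2.

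*Ndrg1* (ENSMUSG00000005125, chromosome 15, 66929318 to 66969640, minus strand), a stress gene that is also active in myelinating cells, had 104, 77.5, 79.0 and 64.1 CPM in the control brains and 87.9, 82.8, 81.1 and 70.8 CPM in the exposed brains. Both the highest and the lowest brain were controls. Its fitted log2 fold change was -0.01 (standard error 0.11, unadjusted p = 0.932 from edgeR), with a 95% interval of the fold from 0.844 to 1.17, and it was 0.13 without 0 ppm replicate 1, 0.05 without 50 ppm replicate 4, 0.17 without 0 ppm replicates 1 and 2 and 0.095 with limma-voom. Summed markers of oligodendrocytes and myelin stood at 122, 111, 146 and 136 CPM in the control brains and 203, 218, 148 and 224 CPM in the exposed brains, and their part in the values of *Ndrg1* was not tested. Genes of the other strand cover 8.4% of its exons.

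*Ankrd37* (ENSMUSG00000050914, chromosome 8, 45996902 to 46005707, minus strand), a small ankyrin repeat gene known as a HIF target, had 2.70, 2.57, 3.56 and 2.28 CPM in the control brains and 4.0, 3.51, 2.96 and 2.82 CPM in the exposed brains. All 4 exposed brains lay above the control mean and above 3 of the controls, and 0 ppm replicate 3 lay above 3 of the exposed brains. Its fitted log2 fold change was 0.26 (standard error 0.19, unadjusted p = 0.190 from edgeR). It was 0.16 without 50 ppm replicate 1, 0.40 without 0 ppm replicate 3 and 0.18 without 0 ppm replicates 1 and 2. Since 26.4% of its exon length overlaps *Lrp2bp* and *Ufsp2* on the opposite strand, its count is uncertain. *Car9* (ENSMUSG00000028463, chromosome 4, 43506966 to 43513729, plus strand) encodes a carbonic anhydrase of the cell surface that handles the acid of glycolysis. It had 5, 9, 6 and 6 reads at 0 ppm and 6, 9, 11 and 11 reads at 50 ppm, or 0.171, 0.335, 0.196 and 0.232 CPM and 0.211, 0.316, 0.393 and 0.485 CPM. Its log2 fold change of 0.57 was the largest of the 10 genes and the least certain (standard error 0.44, unadjusted p = 0.211 from edgeR), with a 95% interval of the fold from 0.782 to 2.83. With 1 library left out it lay between 0.39 and 0.79, and without 0 ppm replicates 1 and 2 it was 0.69. No difference was detectable at this depth, a gene on the other strand shares 9.3% of its exons, and the gene drops out if 10 counts in 4 libraries are required.

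**Figure D2:**
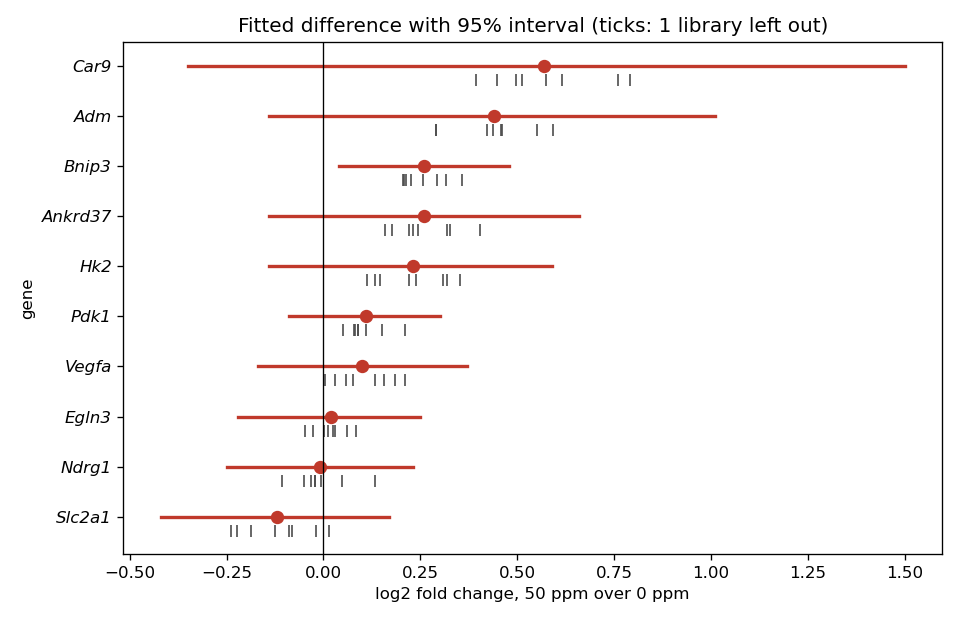
Fitted log2 fold change of 50 ppm over 0 ppm (x axis) for each of the 10 genes (y axis), with a line for the 95% interval and grey ticks for the 8 fits that each left out 1 library. The interval of *Bnip3*, 0.04 to 0.48, is the one that does not include 0, and those of *Car9* and *Adm* are the widest.

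Compared per kilobase of exon, the level of the genes spanned 139-fold from the lowest to the highest. *Slc2a1* had a mean of 17.7 CPM per kilobase over the 8 brains, followed by *Bnip3* with 16.1 and *Ndrg1* with 12.3. *Pdk1* (6.97), *Vegfa* (6.53) and *Egln3* (5.46) formed a middle group, below which came *Ankrd37* (1.98), *Hk2* (1.13), *Adm* (0.617) and *Car9* (0.127). *Slc2a1* was above *Bnip3* in 4 of 8 brains, by the means at 0 ppm (18.4 and 14.6) but not at 50 ppm (16.9 and 17.5), and *Pdk1* was above *Vegfa* and *Vegfa* above *Egln3* in 6 of 8 each, so these neighbors are not separated beyond their spread. *Bnip3* was above *Ndrg1* in 7 of 8, and each of the other neighbors kept its order in all 8.

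**Figure D3:**
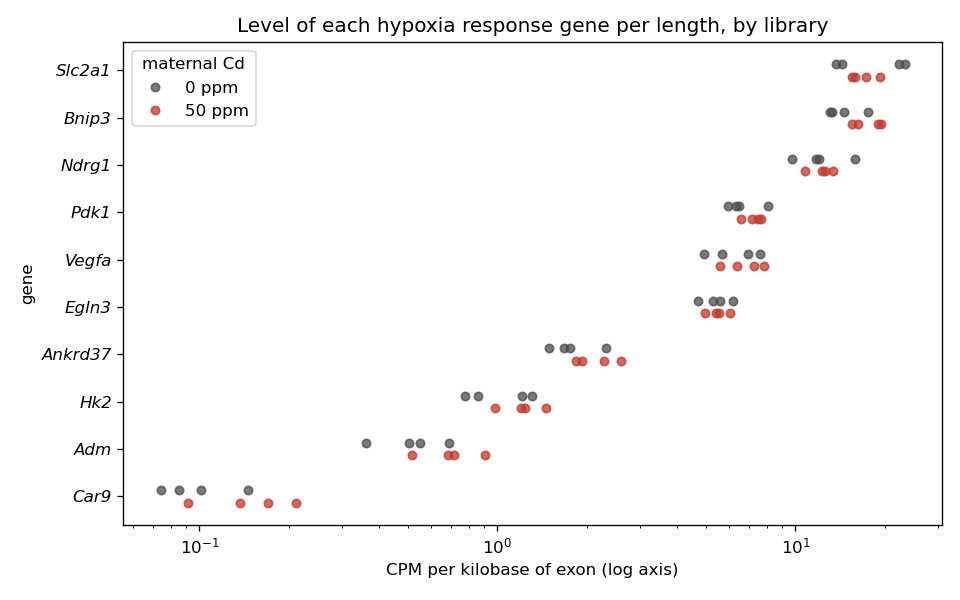
Level of each gene (y axis) in CPM per kilobase of exon (x axis, log scale) in each brain, grey for 0 ppm and red for 50 ppm. From *Ndrg1* down to *Car9* the order of the means is the same at both doses, while *Slc2a1* and *Bnip3* trade places, at 18.4 and 14.6 for 0 ppm and 16.9 and 17.5 for 50 ppm.

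The 10 genes did not rank the brains in 1 way. Among the controls, 0 ppm replicate 3 was the highest for 5 of the 10 genes, and it was the only control to reach the exposed brains for *Bnip3*, *Pdk1* and *Ankrd37*. In contrast, 0 ppm replicate 4 was the lowest of all 8 brains for 5. Among the exposed brains, 50 ppm replicate 4 was the highest of all 8 for 3 genes, and no exposed brain was the lowest of the 8 for any gene. The mean rank over the 10 genes, from 1 for the lowest brain to 8 for the highest, was 3.3, 3.8, 5.4 and 2.3 at 0 ppm and 5.5, 4.7, 5.8 and 5.2 at 50 ppm. The summed CPM of the genes, 245 to 323 at 0 ppm and 281 to 303 at 50 ppm, placed the exposed brains inside the range of the controls. Replicates have no order, so these ranks describe single brains.

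**Figure D4:**
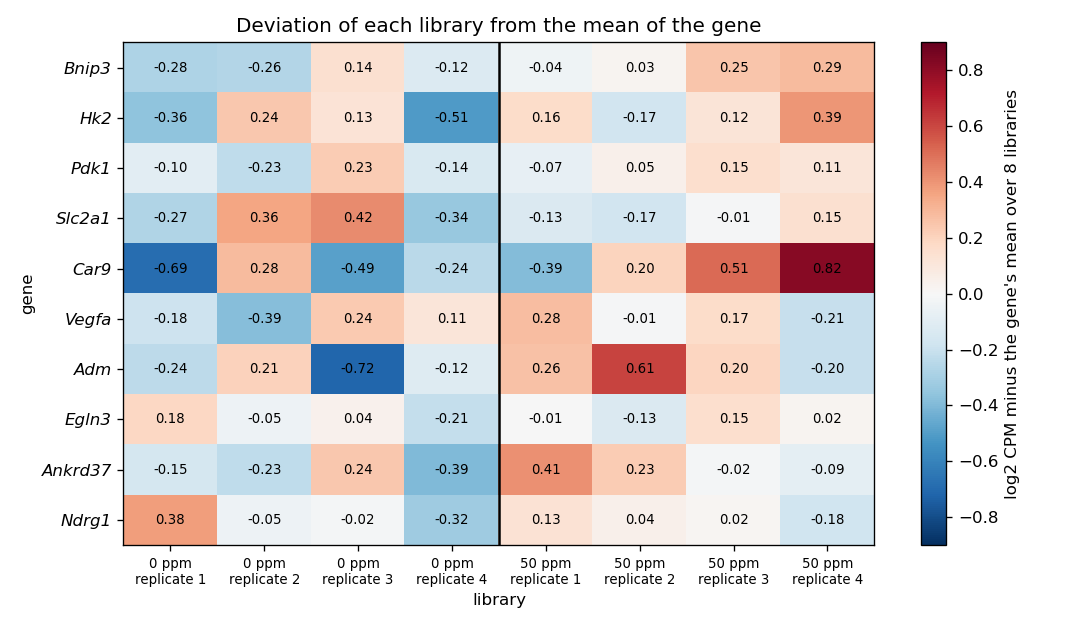
Deviation of each brain (columns) from the gene's mean over the 8 brains (rows), as log2 CPM; red is above and blue below the mean, and a line parts the doses. Every column holds values on both sides of 0, and the mean deviation of a brain lies between -0.23 (0 ppm replicate 4) and 0.15 (50 ppm replicate 3).

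Of the 5 HIF subunit genes, 0 had an unadjusted p under 0.05, a count near the share of 3.75% over all genes. *Hif1a* had means of 172 ± 10.8 and 167 ± 12.1 CPM (SD, n = 4), for a log2 fold change of -0.04. The corresponding values were 0.09 for *Epas1*, which encodes HIF-2 alpha, 0.12 for *Arnt* and -0.07 for *Arnt2*, the neuronal partner with the most reads. *Hif3a*, whose products can restrain the others, varied most within a dose, with 7.34, 19.4, 14.5 and 7.55 CPM in the control brains and 8.38, 7.37, 13.6 and 15.4 CPM in the exposed brains (log2 fold change -0.13, standard error 0.27). The high control pair was again 0 ppm replicates 2 and 3, as for *Slc2a1* and *Hk2*. Of the 8 genes of oxygen sensing and HIF degradation (*Egln1*, *Egln2*, *Hif1an*, *Vhl*, *Elob*, *Eloc*, *Cul2* and *Rbx1*), 0 had an unadjusted p under 0.05, again near that share, and the log2 fold changes lay between -0.06 and 0.02. *Eloc*, the one with the most reads, had means of 135 ± 6.24 and 137 ± 8.82 CPM (SD, n = 4).

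Other HIF targets, 54 genes in 5 lists, gave 0 with an adjusted p under 0.05 and 7 with an unadjusted one, all 7 higher at 50 ppm, against 2.31% of all genes in that direction. Their median log2 fold change was 0.08, with 38 positive and 16 negative (49.0% of all genes were positive). Glycolysis and lactate export held 17 genes, 15 positive and 2 negative, with a median of 0.18, and *Aldoc* (0.40, unadjusted p = 0.00296), *Gpi1* (0.25, unadjusted p = 0.0310) and *Eno1* (0.23, unadjusted p = 0.0486), all enzymes of the pathway, had an unadjusted p under 0.05 with edgeR. *Pkm*, the one with the most reads, had a log2 fold change of 0.08. Without 0 ppm replicates 1 and 2 the median of the list was 0.01, with 10 positive and 7 negative and 0 at an unadjusted p under 0.05, and *Aldoc*, *Gpi1* and *Eno1* stood at 0.16, 0.09 and 0.08. With 1 library left out, *Aldoc* had an unadjusted p under 0.05 in 8 of 8 fits, *Gpi1* in 3 and *Eno1* in 2. *Aldoc*, the aldolase that astrocytes also use, had 94.3, 101, 156 and 124 CPM in the control brains and 147, 155, 153 and 173 CPM in the exposed brains, with 0 ppm replicate 3 among the exposed brains. Astrocyte markers summed to 784 to 991 CPM at 0 ppm and 988 to 1203 CPM at 50 ppm. All 8 were positive (49.0% over all genes). *Aqp4* (0.71), *Gfap* (0.59), *S100b* (0.69), *Gjb6* (0.52) and *Gja1* (0.44) had an unadjusted p under 0.05 (2.31% of all genes in that direction). With 0 ppm replicates 1 and 2 left out, 7 were positive and 5 had such a p (50% and 2.24% of all genes). The part of the astrocyte markers in the values of *Aldoc* was not tested.

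The list of vessels, blood and iron had the highest median of these 5 lists, 0.32 over 10 genes. Of these, 8 were positive and 2 negative (49.0% of all genes were positive). An unadjusted p under 0.05 was found for 3, all higher at 50 ppm (2.31% of all genes in that direction). The authors had earlier reported an iron deficiency in newborn pups of exposed mothers. The part of that deficiency in the values of this list was not tested. *Cp*, which encodes the copper protein ceruloplasmin that oxidizes iron for export, was the 1 gene of these 54 whose doses did not overlap (1.19% of all genes lay higher in that way), with 15.4, 17.8, 16.6 and 15.5 CPM in the control brains and 20.5, 19.0, 23.6 and 22.7 CPM in the exposed brains (log2 fold change 0.39, standard error 0.10, unadjusted p = 0.00112, adjusted p = 0.570 from edgeR). *Tfrc*, the transferrin receptor that takes iron up and the gene of the list with the most reads, had 137, 170, 101 and 182 CPM in the control brains and 210, 183, 159 and 216 CPM in the exposed brains (log2 fold change 0.38, standard error 0.14, unadjusted p = 0.0119). *Angptl4*, a secreted inhibitor of lipoprotein lipase, had 14.9, 9.82, 7.94 and 14.0 CPM in the control brains and 17.3, 16.6, 12.5 and 15.2 CPM in the exposed brains (log2 fold change 0.40, standard error 0.17, unadjusted p = 0.0287). For *Tfrc* and *Angptl4*, 3 of 4 exposed brains lay above the highest control. Without 0 ppm replicates 1 and 2 the log2 fold changes of *Cp*, *Tfrc* and *Angptl4* were 0.41, 0.44 and 0.49. All 3 had an unadjusted p under 0.05 (2.24% of all genes in that direction), and the median of the list was 0.14. With 1 library left out, *Cp* had an unadjusted p under 0.05 in 8 of 8 fits, *Tfrc* in 7 (not without 50 ppm replicate 4) and *Angptl4* in 3. The main receptors of *Vegfa*, *Flt1* (0.18) and *Kdr* (0.10), had no unadjusted p under 0.05. Red cell markers (7 of 8 listed were in the table), whose precursors also use *Tfrc*, summed to 128 to 312 CPM at 0 ppm and 101 to 404 CPM at 50 ppm. Of the 7, 2 were positive and 0 had an unadjusted p under 0.05, against 49.0% and 3.75% of all genes.

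Collagen and matrix enzymes held 6 genes, 5 positive and 1 negative (49.0% of all genes were positive), with a median of 0.14. An unadjusted p under 0.05 was found for 1, *Lox* (2.31% of all genes in that direction). *Lox*, which cross-links collagen, had means of 16.9 ± 1.75 and 20.7 ± 2.86 CPM (SD, n = 4), for a log2 fold change of 0.29 (unadjusted p = 0.0208 from edgeR, and 0.0664 at 0.26 without 0 ppm replicates 1 and 2), and *P4ha1*, the one with the most reads, had a log2 fold change of 0.01. *Lox* had an unadjusted p under 0.05 in 5 of the 8 fits that left out 1 library. Meningeal markers, a tissue rich in collagen, summed to 639 to 774 CPM at 0 ppm and 720 to 792 CPM at 50 ppm. Of these markers, *Igf2* (0.16) had an unadjusted p under 0.05 (2.31% of all genes in that direction). The part of the meningeal markers in the values of *Lox* was not tested. The last list, 14 HIF targets of varied function, had 5 positive, 9 negative (49.0% of all genes were positive) and a median of -0.03. It held 0 genes with an unadjusted p under 0.05 (3.75% of all genes). *Kdm4b*, a histone demethylase with the most reads of the list, had a log2 fold change of -0.07.

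Family relatives of the 10 genes that are not in the lists of HIF targets above were read beside them, and whether low oxygen raises them was not tested. Of 11, 10 passed the filter (*Adm2* had reads in 1 library). Of the 10, 7 were positive and 3 negative (49.0% of all genes were positive), with a median of 0.05. An unadjusted p under 0.05 was found for 1, *Ndrg2* (2.31% of all genes in that direction). *Ndrg2*, a gene of astrocytes, had means of 203 ± 36.9 and 240 ± 25.7 CPM (SD, n = 4), for a log2 fold change of 0.24 (unadjusted p = 0.0346 from edgeR), beside -0.01 for *Ndrg1* and 0.09 for *Ndrg4*, the relative with the most reads. Without 0 ppm replicates 1 and 2 the value of *Ndrg2* was 0.08, and its unadjusted p was under 0.05 in 3 of the 8 fits that left out 1 library. In the lists not yet given, the median log2 fold change without 0 ppm replicates 1 and 2 was 0.01 for HIF subunits and -0.03 for oxygen sensing. It was 0 for mitochondria and autophagy, 0.10 for collagen and matrix enzymes and -0.03 for the varied targets. For *Calcrl* with the RAMP genes it was 0.31, and for the relatives 0.09. Over the 54 other HIF targets, *Cp*, *Tfrc*, *Angptl4* and *Edn1* (0.57) then had an unadjusted p under 0.05 in the higher direction and *Wsb1* (-0.28) in the lower one, against 2.24% and 2.04% of all genes, and *Edn1* and *Wsb1* were named after their values were seen.

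**Figure D5:**
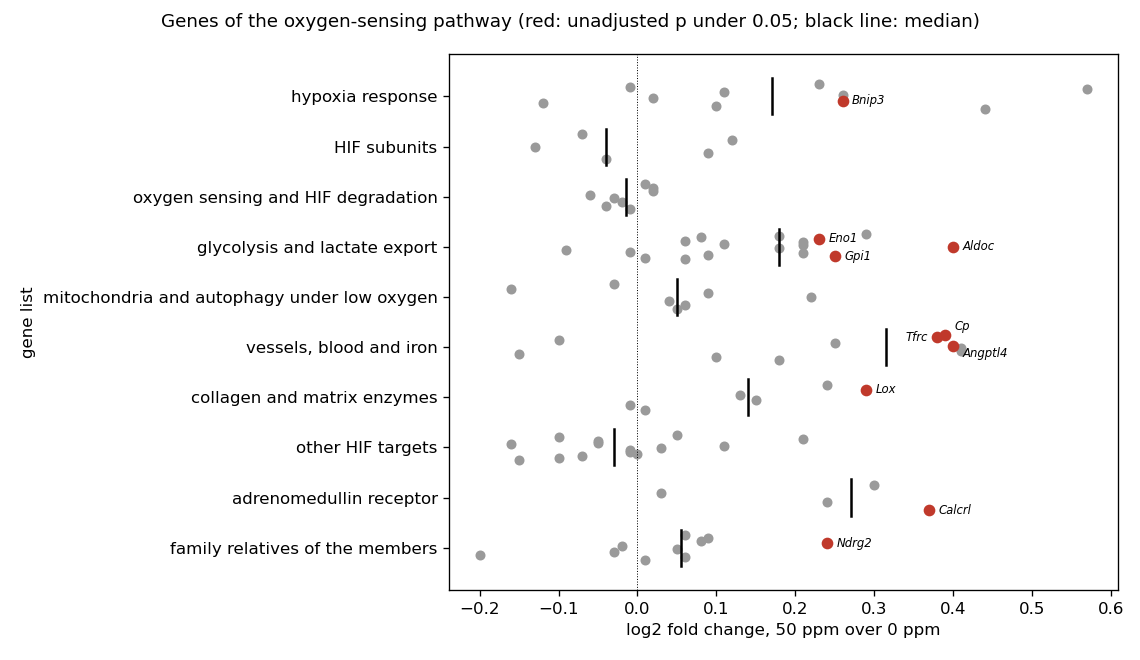
Log2 fold change of 50 ppm over 0 ppm (x axis) of every tested gene in the lists of the pathway (y axis), with a black line for the median of a list and red points, named, for genes with an unadjusted p under 0.05. HIF subunits and oxygen sensors lie near 0, with medians of -0.04 and -0.01, and all red points lie to the right, with none past the adjusted threshold.

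The remaining marker lists describe the makeup of the brains. Oligodendrocyte and myelin markers had 9 of 10 positive (49.0% over all genes). *Bcas1* (0.97, adjusted p = 0.0375 from edgeR) was past the threshold, against 0.0173% of all genes. The study itself, which tested with DESeq2, listed *Mbp*, *Mag*, *Cnp* and *Enpp6* beside *Bcas1* as differentially expressed. An unadjusted p under 0.05 was found for 8 (2.31% of all genes in that direction), among them *Mbp*, *Mag*, *Cnp*, *Mobp*, *Myrf* and *Enpp6*. With 0 ppm replicates 1 and 2 left out, 10 were positive and 7 had such a p (50% and 2.24% of all genes). Brainstem and spinal cord markers had 9 of 9 tested positive (49.0% over all genes). Of these, 7 had an unadjusted p under 0.05 (2.31% of all genes in that direction), among them *Slc6a5*, *Hoxb2*, *Hoxb3*, *Hoxb4*, *Hoxa2* and *Slc6a2*. The controls set apart above, 0 ppm replicates 1 and 2, stood out by their low levels of these same markers. A smaller difference without them therefore follows from that choice and is not a test. When both were left out, 8 were positive and 3 were higher at an unadjusted p under 0.05 (50% and 2.24% of all genes). The median went from 1.46 to 0.59. *Hoxb2*, *Hoxb4* and *Hoxa2* then no longer had an unadjusted p under 0.05. Choroid plexus markers summed to 471 to 1235 CPM at 0 ppm, highest in replicate 2, and 365 to 823 CPM at 50 ppm. Of the 7, 2 were positive (49.0% over all genes), with a median of -0.21. That direction was not stable, since 6 of 7 were positive without 0 ppm replicates 1 and 2. The median was then 0.16, and 1 marker was higher at an unadjusted p under 0.05 (2.24% of all genes). Of the 8 tested brain markers, *Nes*, a gene of neural progenitors, was lower at 50 ppm at an unadjusted p under 0.05 (-0.21). Of all genes, 1.44% were lower in that way. The part of these cell types in the values of the 10 genes was not tested.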

How the data were processed

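Whole brains of 8 newborn B × C females (4 at 0 ppm, 4 at 50 ppm, grouped by the labelled treatment) were measured by poly(A) RNA-seq. After trimming, the authors used STAR to align reads to the Ensembl C57BL/6J genome (GRCm38) and htseq-count to count them; tool versions and the strand setting are not given in the sources used here. The authors deposited raw counts per gene, without normalization, and all 8 columns were used. The table for the CAST/EiJ alignment was not used here.

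A gene was kept unless it had 0 counts in over 2/3 of libraries, after the wording of the study's methods; this kept 23113 genes, more than the study states, and the number tested enters the adjusted p. Counts were normalized by TMM and tested with edgeR 4.0.16 (glmQLFit and glmQLFTest, R 4.3.3) with treatment alone in the model and p-values adjusted by Benjamini-Hochberg over the 23113 tested genes, at a threshold of 0.05. CPM are given with the SD over 4 brains and folds with 95% intervals of the fit. Total counts of 22916434 to 30708087 per library set the precision. Symbols were matched by Ensembl identifier for 49326 of 49585 genes, and exons were taken from the GENCODE annotation of GRCm38. The code was tested on simulated data. Alternatives were DESeq2 1.42.0 with default settings, DESeq2's size factors, no filter, a minimum of 10 counts in 4 or more libraries, a robust edgeR fit, limma-voom (limma 3.58.1) with sample quality weights, each library left out and, chosen after seeing the data, 0 ppm replicates 1 and 2 left out.

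Named are all 10 genes and every HIF subunit, of each pathway list the gene with the most reads and those with an unadjusted p under 0.05, and of marker lists the latter and genes at 0, except that some single marker genes are not reported here. A few relatives in the pathway (*Flt1*, *Kdr*, *Egln1* and the other oxygen sensors, *Adm2*) are named beside them, a choice made after seeing their values. The genes and lists were chosen with earlier results of these data known.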

Additional observations from a re-analysis of the deposited data

How the results depend on the processing

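None of the 10 hypoxia response genes had an adjusted p under 0.05 in any of the 15 alternatives (*Car9* was not tested under the stricter filter). The number of all genes past the threshold was 4, and it was 18 with DESeq2, 52 without the filter, 2 when 10 counts in 4 libraries were required, 1 with limma-voom, 7 without 0 ppm replicates 1 and 2, and 2 to 20 with 1 library left out, highest without 0 ppm replicate 3. The number of hypoxia response genes with an unadjusted p under 0.05 was 1, and it was 0 without 0 ppm replicates 1 and 2 and 0 to 2 with 1 library left out (0 when the library left out was 1 or 2 of the controls or 3 or 4 of the exposed brains). The cause of these moves was not tested. The log2 fold change of *Slc2a1* turned to 0.015 with limma-voom and lay between -0.239 and 0.014 with 1 library left out. That of *Ndrg1* turned to 0.095 with limma-voom and 0.168 without 0 ppm replicates 1 and 2, and lay between -0.107 and 0.133 with 1 library left out. *Egln3* lay between -0.047 and 0.083 with 1 library left out, and *Vegfa*, between 0.005 and 0.21 with 1 library left out, turned to -0.108 and *Pdk1* to -0.004 without 0 ppm replicates 1 and 2. *Adm*, *Bnip3*, *Ankrd37*, *Hk2* and *Car9* kept a positive log2 fold change in every alternative that gave one. No paired analysis was possible because the labels number no replicates and each pup came from a different litter. Depth limits *Car9* (5 to 11 reads) and *Adm* (18 to 42 reads).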
